A study of Rattus norvegicus with 48 samples.

Results

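The lists of differentially methylated cytosines in rat epididymal sperm placed 168 distinct cytosines on chromosome 17, of 3998 on the 20 chromosomes listed. These members were chosen by their chromosome from lists that the authors had themselves selected on the measured methylation difference and its false discovery rate. Every listed difference below is therefore a description of chosen sites, with no test. Counted once per generation, the 168 cytosines made up 227 of 4937 entries.

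The assay was reduced representation bisulfite sequencing. It samples CpG-rich fragments of the genome and tells methylated cytosines from unmethylated ones, which bisulfite converts. The animals were Sprague-Dawley rats, an outbred laboratory stock. Founder females (F0) were given by gavage either corn oil (the control group) or the POPs Arctic mixture, labelled organochlorines, at 500 µg per kg body weight for 5 weeks before mating, and gavage went on until the birth of the litters. Sperm came from the caudal epididymis of males killed at 90 days of age in the F1, F2 and F3 generations, and the series' design text counts 6 exposed and 6 control samples for each. All animals, controls included, shared the strain and descended from gavaged founders. The labels do not say how many litters or sires the 6 samples of a group came from.

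The sample labels number the generations 1 to 4, with 12 samples in each, whereas the lists are described as F1, F2 and F3. The samples that cite the lists carry generation 2, 3 or 4, and the 12 samples of generation 1 cite none. Which labelled groups each list compares is therefore not settled here, and the lists are called by their own names. The words hypermethylated and hypomethylated follow the lists. Which group was subtracted from the other is not given in the sources used here. Each value is 1 difference between groups in percentage points of methylation. Levels of single samples, read depth and the number of cytosines tested were not analysed here, so no replicate error can be attached to a site and the purity of the sperm could not be checked.

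In mammals, methyl groups are added to cytosines that precede a guanine, a CpG, on both DNA strands. Maintenance methylation copies the pattern from the old strand to the new one at replication, so the 2 strands of a CpG usually share their state. CpGs close together on a molecule usually share their state as well. The male germ line erases most of this methylation in the embryo and rebuilds it before birth, and much of the sperm pattern is erased again after fertilisation. Sites whose difference returns in several generations are therefore of interest in studies of ancestral exposure, here of the founder females before and during pregnancy.

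Cytosines at most 1000 bp apart, over the 3 lists together, were joined into loci, and loci at most 1 Mb apart into blocks. Chromosome 17 then held 108 of 2716 loci, over a listed span of 89.8 Mb on the rat build Rnor_5.0. Listed loci were spread unevenly along it. The stretch from 10000001 to 20000000 held 40 loci. Among the 269 stretches of 10 Mb with a locus in the genome, this number ranked 3 and the median was 8. The middle of the chromosome was sparse, and no cytosine was listed over 10.5 Mb between 47610548 and 58082174. Listed loci grew dense again from 76687491 to the last entry at 91272690.

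**Figure D1:**
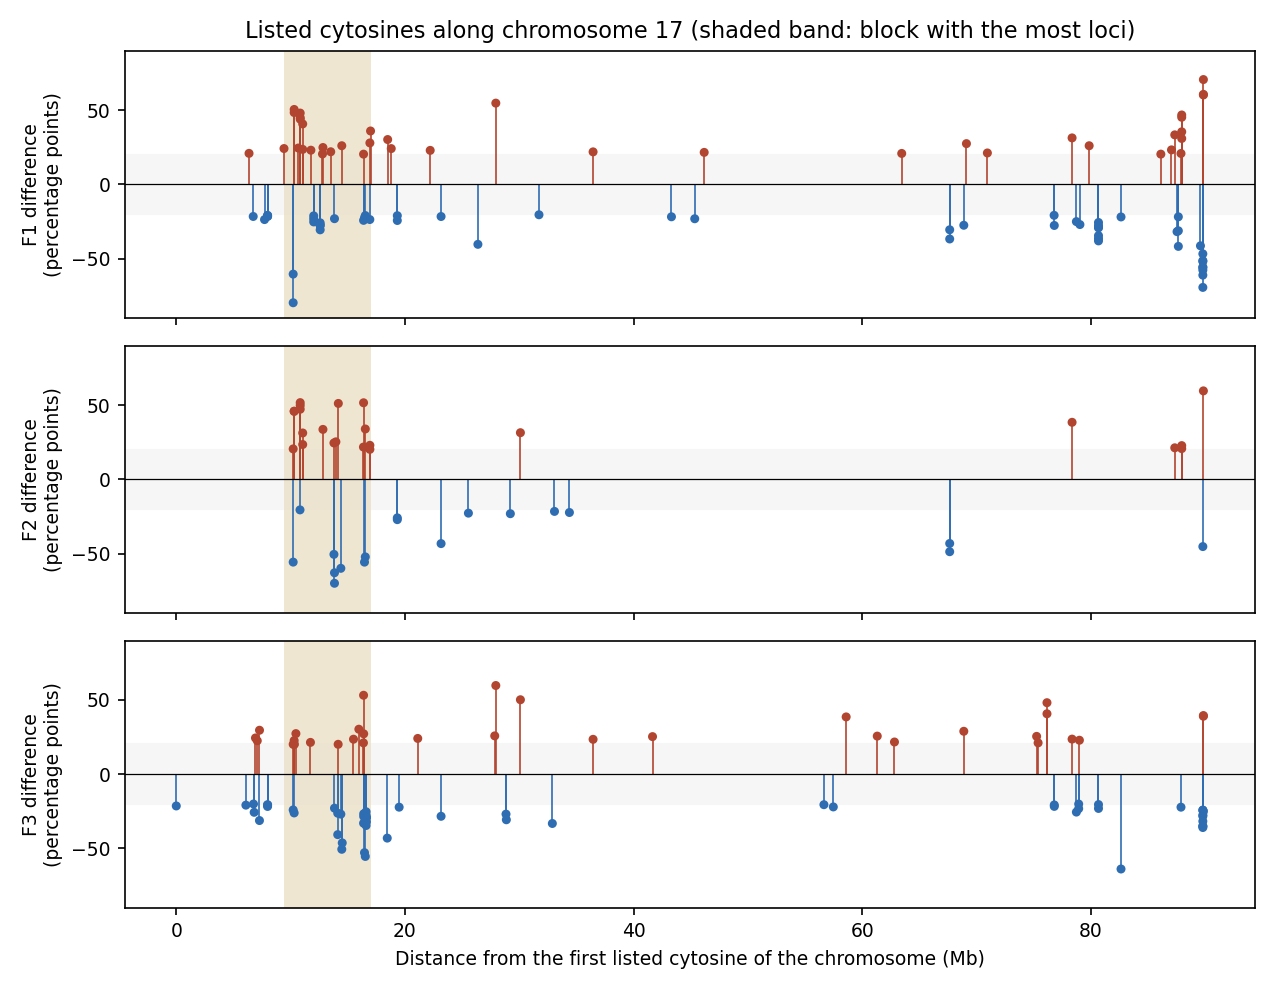
Signed methylation difference (percentage points, vertical) of each listed cytosine against its distance from the first listed cytosine of chromosome 17 (Mb, horizontal), in the F1, F2 and F3 lists, with hypermethylated sites in red, hypomethylated sites in blue the block of 38 loci shaded and sizes under the authors' minimum of 20 points in grey. Of the 41 entries of the F2 list, 25 lie in the shaded block, against 31 of the 95 F1 entries and 36 of the 91 F3 entries.

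The F1 list held 95 cytosines of the chromosome, 40 hypermethylated and 55 hypomethylated, in 60 loci. The F2 list held 41, with 23 hypermethylated and 18 hypomethylated, in 30 loci, and the F3 list 91, with 33 and 58, in 60 loci. In F1 the loci were nearly balanced in direction, with 31 hypermethylated and 29 hypomethylated (51.7% hypermethylated), against 64.3% hypermethylated over the F1 loci of the other 19 chromosomes. Of those chromosomes 16 had a higher share and 3 a lower one. Counted by cytosine, 42.1% of the F1 entries were hypermethylated, lower than on each of the other chromosomes, where the lowest share was 43.9%. The lower figure by cytosine went with long hypomethylated runs, described below. In F2 the 15 hypermethylated and 15 hypomethylated loci compared with 55.6% hypermethylated elsewhere, and in F3 the 28 hypermethylated of 60 loci gave the same 46.7% as the other chromosomes. From F1 to F3 the share thus ran from 51.7% to 46.7% on chromosome 17 and from 64.3% to 46.7% elsewhere. The 95% exact Clopper-Pearson interval of the F1 share was 38.4% to 64.8%. It covers counting error only and includes the 64.3% of the other chromosomes.

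The loci formed 27 blocks, 12 of them of 1 locus. Of the 15 blocks with 2 or more loci, 11 held hypermethylated and hypomethylated loci in the same generation, a share of 73.3% that 3 other chromosomes exceeded. The median share of the other chromosomes was 60%. With a limit of 0.5 Mb between loci, 10 of 17 blocks of chromosome 17 were mixed (58.8%). Mixing of directions was therefore common within blocks, here and elsewhere. Among adjacent loci of one list at most 1 Mb apart, 50 of 92 pairs (54.3%) had the same direction, beside 56.3% on the other chromosomes. The F1 list had 22 such pairs of 40, the F2 list 7 of 17 and the F3 list 21 of 35.

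After the largest block, 4 others held 6 loci or more. The block chr17:7526368-9423076 held 11 loci, none of them in F2, with 1 hypermethylated and 3 hypomethylated loci in F1 and 3 and 5 in F3. Its differences were small, from 20.1 to 31.2 points in absolute size. The block chr17:79787253-82097716 held 7 loci, with 2 hypermethylated and 3 hypomethylated in F1, 1 hypermethylated in F2 and, as in F1, 2 and 3 in F3. The block chr17:87550663-89377488 held 7 loci as well, 5 hypermethylated and 2 hypomethylated in F1, 2 hypermethylated in F2 and 1 hypomethylated in F3. The block chr17:29291106-31537445 held 6 loci, of which 3 were hypermethylated and 2 hypomethylated in F3, 1 and 1 in F2, and 1 hypermethylated in F1.

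The largest block, chr17:10859766-18429664, held 38 loci with 66 cytosines in 7.57 Mb, which is 35.2% of the loci in 8.43% of the listed span. Loci lay at 5.02 per Mb there and at 0.851 per Mb in the rest. Blocks join loci that lie close, and this one was picked for its many loci, so a higher density inside it follows from the definition. How many cytosines the assay covered per Mb was not analysed here. Among the other chromosomes, only chromosome 5 with 42 and chromosome 20 with 101 loci had a larger block. The widest gap within the block was 0.985 Mb, just under the limit of 1 Mb, and the gaps before and after it were 1.44 and 1.46 Mb. With a limit of 0.5 Mb between loci the chromosome broke into 45 blocks and its largest held 11 loci. Each list had loci of both directions in the block: 13 loci were hypermethylated and 8 hypomethylated in F1, 10 and 7 in F2, and 9 and 11 in F3.

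Large F2 differences gathered in this block. It held 17 of the 30 F2 loci and 9 of the 10 largest F2 differences of the chromosome, against 2 of the 10 largest in F1 and 5 in F3. The median absolute difference of F2 cytosines was 45.8 points inside the block (25 cytosines) and 26.6 points outside it (16 cytosines). In F1 the corresponding medians were 25.2 and 27.7 points, and in F3 28.0 and 25.3 points. Differences of 40 points or more, a limit chosen after the values had been seen, were found at 19 of 41 F2 cytosines, or 46.3% (exact interval 30.7% to 62.6%), beside 14.3% of the F2 cytosines on the other chromosomes. No other chromosome exceeded 26.2%. As the strands of a CpG and neighbouring cytosines were counted separately, the exact interval of the 46.3% is too narrow and is no test. Counted by locus, 15 of 30 F2 loci reached 40 points (50%), and the highest value elsewhere was 34.5%, on chromosome 20. Without the block, 5 of 16 F2 cytosines reached 40 points (31.2%). In F1, 25 of 95 cytosines reached 40 points (26.3%, against 9.29% elsewhere), and in F3 12 of 91 did (13.2%, against 12.5% elsewhere). By locus, 20.0% of the F1 loci of chromosome 17 did so, and chromosome 14 had a higher share at 22.4%.

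Before 15 Mb, 4 of the 6 recurrent loci of the block had a cytosine of at least 40 points in both F1 and F2, and 4 of the 6 were not listed in F3. In the authors' deposited table, position 11749109 on the plus strand had F1, F2 and F3 differences of 50.5, 45.8 and 22.6 points, and 11749110, the minus strand of the same CpG, had 48.4, 45.8 and 20.2. The CpG at 11662289, on the plus strand, had the opposite direction, at -60.4, -55.8 and -24.1 points in the authors' deposited table. Its minus strand at 11662290 was listed in F1 alone, at -79.7 points, the largest difference of the chromosome. Although these 2 CpGs differed in sign, each kept its sign over the lists and had its smallest size in F3. Further on, the authors' deposited table put the CpG at 12276563 at 45.0 and 51.6 points (F1 and F2), and its minus strand at 48.0 and 49.7. The cytosine at 12277933, 1369 bp beyond, was at 43.9 and 47.2 points there. None of these 3 cytosines was listed in F3. The CpG at 12495820 followed, with F1 and F2 values in the authors' deposited table of 40.7 and 23.4 points on the plus strand and 23.6 and 31.2 on the minus strand.

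After 15 Mb, 0 of the 8 recurrent loci of the block had a cytosine of at least 40 points in both F1 and F2, and 4 had one under 40 points in F1 that reached 40 in F2. Of these 8 loci, 2 had no entry in F1 and 1 had none in F2. In the authors' deposited table the cytosine at 15275238 had differences of -23.1, -62.9 and -22.9 points from F1 to F3. Its partner on the plus strand, 15275237, was listed in F2 only, at -70.0 points, the largest F2 difference of the chromosome. From F1 to F3 the authors' deposited table listed 17900260 at -22.5, -55.8 and -52.8 points and 17971148, 70.9 kb away, at -21.0, -52.3 and -55.4. Both sites were thus small in F1 and large in F2 and F3. The cytosine at 15831885, absent from the F1 list, had F2 and F3 values of -59.9 and -26.9 points in the authors' deposited table. Loci listed in F2 alone nearby varied in size. In the authors' deposited table they had -50.5 points at 15227589, 25.2 at 15398578 and 51.1 at 15611344. The locus of 15227589 also held 15227820 in the opposite direction, at 24.5 points. The F3 list alone held 15953091, at -46.3 points in the authors' deposited table. The split of the block at 15 Mb was made after the values had been seen, and whether neighbouring loci share a profile beyond what unrelated loci would was not tested. At 3 further recurrent loci of the block the values were smaller. The authors' deposited table listed 14265945 at 24.8 and 33.6 points and 18371460 at 27.9 and 22.9 points, both in F1 and F2, and 17807450 at 21.7 and 21.1 points in F2 and F3.

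Cytosines a few bases apart usually had one direction, and the exceptions on chromosome 17 all lay in this block. Of 63 neighbouring pairs of one list at most 50 bp apart, 7 were opposite (11.1%, exact interval 4.59% to 21.6%). This was the highest share of the 20 chromosomes, beside 40 of 1127 pairs elsewhere and 9.68% on chromosome 14. Outside the block, 0 of 31 such pairs were opposite. The 7 opposite pairs were not 7 separate sites. Those at 11662272 and at 17819008 were each counted in more than 1 list. Between 17829923 and 17829992, neighbouring opposite pairs shared a cytosine. The interval treats pairs as independent and is therefore too narrow. Whether the rank above chromosome 14 holds with each site counted once was not tested. The pair 17819008 and 17819017, 9 bp apart on the plus strand, was at 20.4 and -24.2 points in F1 in the authors' deposited table. In F3 the same pair was at -33.0 and 53.1 points, so each cytosine had turned over while they stayed opposite to each other. In F2 only the first was listed, at 51.5 points. The pair 17971139 and 17971148, also 9 bp apart, on the minus strand, was at 33.9 and -52.3 points in F2 in the authors' deposited table. On the minus strand, 11662272 had F2 and F3 values of 20.5 and 20.1 points in the authors' deposited table, 17 bp from the plus-strand cytosine 11662289 with -55.8 and -24.1. Between 17829923 and 17829992, 3 plus-strand cytosines of the F3 list were at -28.5, 27.2 and -26.7 points in the authors' deposited table. By locus, 6 of 108 (5.56%) held both directions in 1 generation, 5 of them in the block, against 2.61% of the loci elsewhere.

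Longer runs of cytosines, mostly with one direction, were the other form of clustering. Runs of at least 3 cytosines in one list occurred at 10 loci, and all but the locus at 17829923 and, in F3, the one at 91272438 had 1 direction in each generation. The longest was chr17:18041041-18041222, in the block, with 11 hypomethylated cytosines in F3, all on the minus strand, with a mean of -30.0 points (SD 2.56 over the 11 cytosines, which share fragments and are not replicates). It was not listed in F1 or F2. At chr17:82097589-82097716, 7 cytosines on both strands had a mean of -31.5 points in F1, and 2 of them were listed in F3 with a mean of -21.8. At chr17:9423036-9423076, 4 cytosines averaged -21.2 points in F1 and 3 averaged -21.04 in F3, with 2 cytosines in common. At chr17:89377341-89377488, 4 cytosines averaged 39.6 points in F1, and 2 of them 21.7 in F2. Runs listed in F1 alone were chr17:14023772-14023811 with 4 cytosines and chr17:13457755-13457779 and chr17:89081292-89081303 with 3 each, all hypomethylated.

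The last listed block, chr17:91016843-91272690, held a pair of large neighbouring loci of opposite direction. The run chr17:91224532-91224679 comprised 8 cytosines, 4 on each strand, and all 8 were hypomethylated in F1 and again in F3. Their values in the authors' deposited table ran from -69.3 to -46.8 points in F1 and from -35.9 to -24.2 in F3, so the ranges did not overlap and each cytosine was smaller in F3. Only 91224614 was listed in F2, at -45.3 points, between its F1 value of -56.0 and its F3 value of -27.5. The hypermethylated locus chr17:91272438-91272690 lay 47.8 kb further on. Its cytosine 91272438 was at 70.6 points in F1 and 59.5 in F2 in the authors' deposited table, the largest hypermethylated value of the chromosome in each of the 2 lists. The authors' deposited table listed 91272563 at 60.2 points in F1 and 39.5 in F3, and 91272690 at 60.6 and 39.01. In F3 a further cytosine, 91272448, was at -25.1 points, 10 bp from 91272438.

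The share of recurrent loci on chromosome 17 ranked 3 of 20 chromosomes. Of its 108 loci, 32 were listed in at least 2 generations (29.6%, exact interval 21.2% to 39.2%), against 23.8% of the loci elsewhere, and only chromosomes 8 and 20 had higher shares. The interval includes the share elsewhere. Loci listed in all 3 generations numbered 10 (9.26%, against 4.79% elsewhere), and only chromosome 8 had a higher share, at 10.7%. The stretch from 10000001 to 20000000 alone held 6 of them, a number that only 2 other stretches of 10 Mb in the genome reached. Another 9 loci were listed in F1 and F2 only, 10 in F1 and F3 only and 3 in F2 and F3 only. Seen from each list, 73.3% of the F2 loci recurred, beside 53.3% of the F2 loci elsewhere. For F1 the shares were 48.3% and 37.4%, and for F3 38.3% and 36.4%. Recurrent loci made up 14 of the 38 loci of the largest block (36.8%) and 18 of the 70 loci outside it (25.7%).

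**Figure D2:**
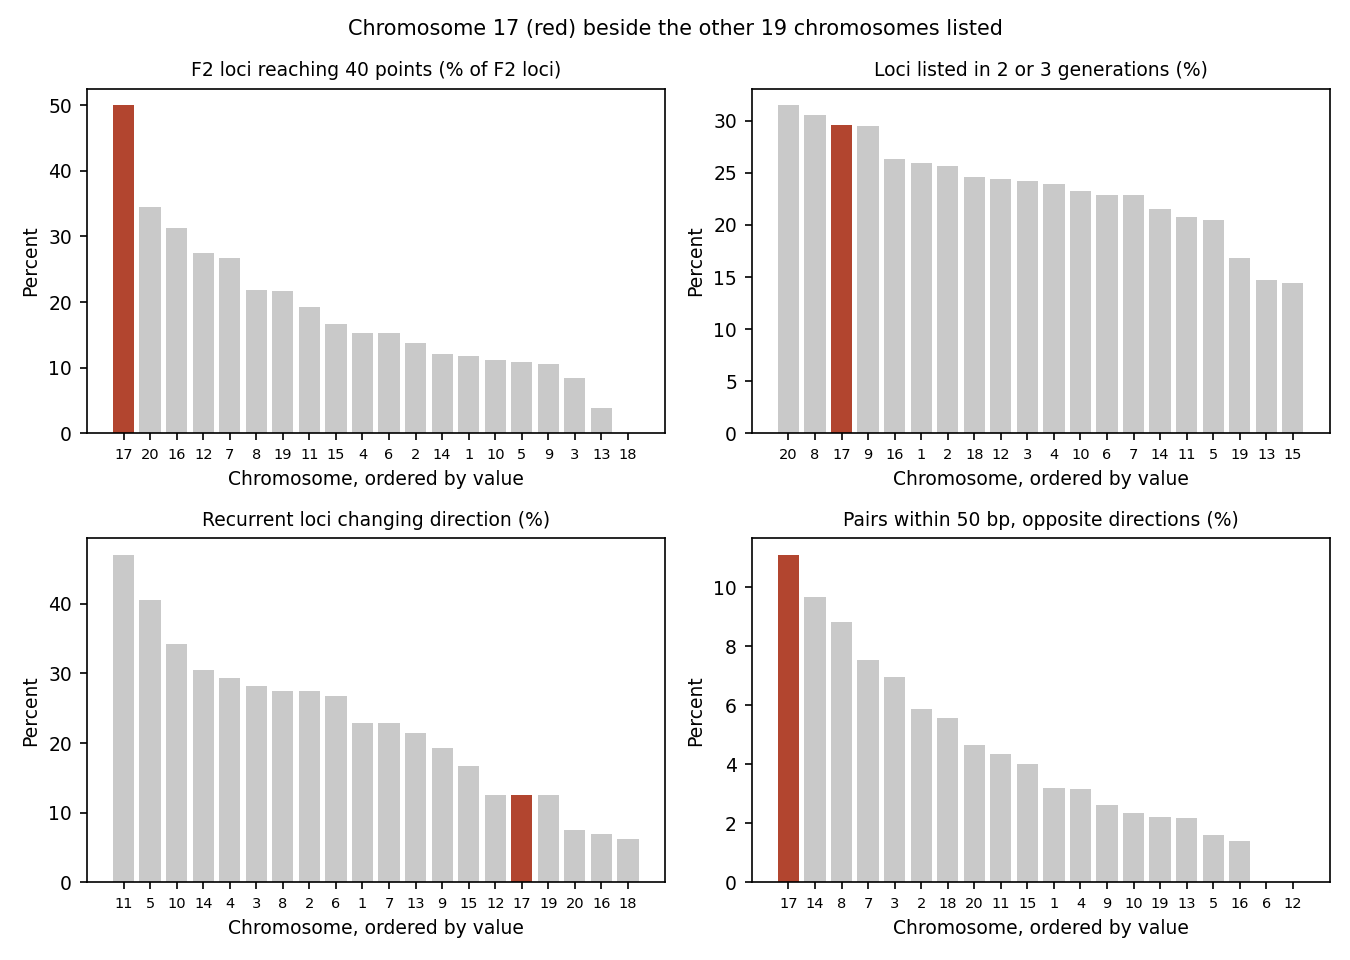
Each bar is 1 chromosome, ordered by value within each panel, with chromosome 17 in red, and the vertical axes give percent. Chromosome 17 stands highest for F2 loci reaching 40 points (50%) and for opposite pairs within 50 bp (11.1%), at rank 3 for loci listed in 2 or 3 generations (29.6%), and low for recurrent loci changing direction (12.5%).

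Outside the largest block, recurrent loci with a constant direction included several large ones. The authors' deposited table gave 29385508 an F1 difference of 54.7 points and an F3 difference of 59.7, the largest hypermethylated F3 value of the chromosome, with no F2 entry. For 31537445 the authors' deposited table held 31.4 points (F2) and 50.1 points (F3). The cytosine 84067535 had -21.9 points (F1) and -63.9 points (F3) in the authors' deposited table, the latter the largest F3 difference of the chromosome, again with no F2 entry. These 3 sites were larger in the later list. The CpG at 69083534 had F1 and F2 values of -30.5 and -43.2 points on the plus strand and -36.7 and -48.8 on the minus strand in the authors' deposited table. Listed in all 3 generations by the authors' deposited table were 24597962, at -21.6, -43.3 and -28.4 points, and 79787253, at 31.3, 38.4 and 23.6 points, both largest in F2. Among cytosines outside the block with an entry in 1 list only, 77591666 had the largest difference in the authors' deposited table, 48.1 points in F3, beside 40.7 points on the plus strand of the same CpG.

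Few recurrent loci of the chromosome reversed direction. The mean difference changed sign between generations at 4 of 32 recurrent loci (12.5%, exact interval 3.51% to 29.0%), against 24% elsewhere, where the shares ran from 6.25% on chromosome 18 to 47.1% on chromosome 11. The interval includes the share elsewhere. Chromosomes 12 and 19 had the same share, and 16, 18 and 20 lower ones. All 4 had opposite means in F1 and F3, and the locus at 17819008 also in F1 and F2. The cytosine 15913714 went from 26.05 points (F1) to -50.6 points (F3) in the authors' deposited table, and 70317362 from -27.5 to 28.9. At the locus of 17819008 and 17819017, described above, the F1, F2 and F3 means were -1.91, 51.5 and 10.1 points. The means of F1 and F3 there each average values of opposite sign, so the reversal of the locus rests on a value near 0, whereas both of its cytosines did change sign from F1 to F3, and 17819008 also from F2 to F3. At chr17:89312706-89313183 the F1 and F3 entries were different cytosines, at the ends of a locus of 478 bp, at 20.8 and -22.2 points in the authors' deposited table, so no single cytosine there is known to have turned over. With a minimum difference of 30 points, 0 of 14 recurrent loci reversed by their means. The cytosine 17819008 still changed sign at that minimum, from 51.5 points in F2 to -33.0 in F3. Its locus mean stayed positive in F3 because 17819017 was at 53.1 points.

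Counted by cytosine, 49 of the 168 were listed in at least 2 generations, 10 of these in all 3, and 4 had both signs. F1 and F2 shared 24 cytosines, 58.5% of the F2 and 25.3% of the F1 entries, and all 24 had the same direction. F1 and F3 shared 31 (32.6% and 34.1%), of which 27 had the same direction, and F2 and F3 shared 14 (34.1% and 15.4%), of which 13 did. On the other chromosomes the same direction was found for 94.1%, 75.7% and 88.8% of the shared cytosines.

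Sites with one direction in F2 and F3 were mostly smaller in F3. Of the 13 shared cytosines of this kind, 11 were smaller in F3, with a median change in size of -14.9 points, and the exceptions were 31537445 and 17971148. On the other chromosomes 141 of 294 such cytosines were smaller in F3. Counted by locus mean, the number was again 11 of 13 (84.6%, beside 51.5% elsewhere), although 3 of the 11 means combine opposite values, those at 11662272, 17819008 and 91272438. From F1 to F3, 19 of the 27 cytosines of one direction were smaller, 8 of them in the run at 91224532. By locus this was so for 9 of 16, and from F1 to F2 for 9 of 18. All lists begin at 20 points, so a site that was smaller still in a later generation could not appear.

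**Figure D3:**
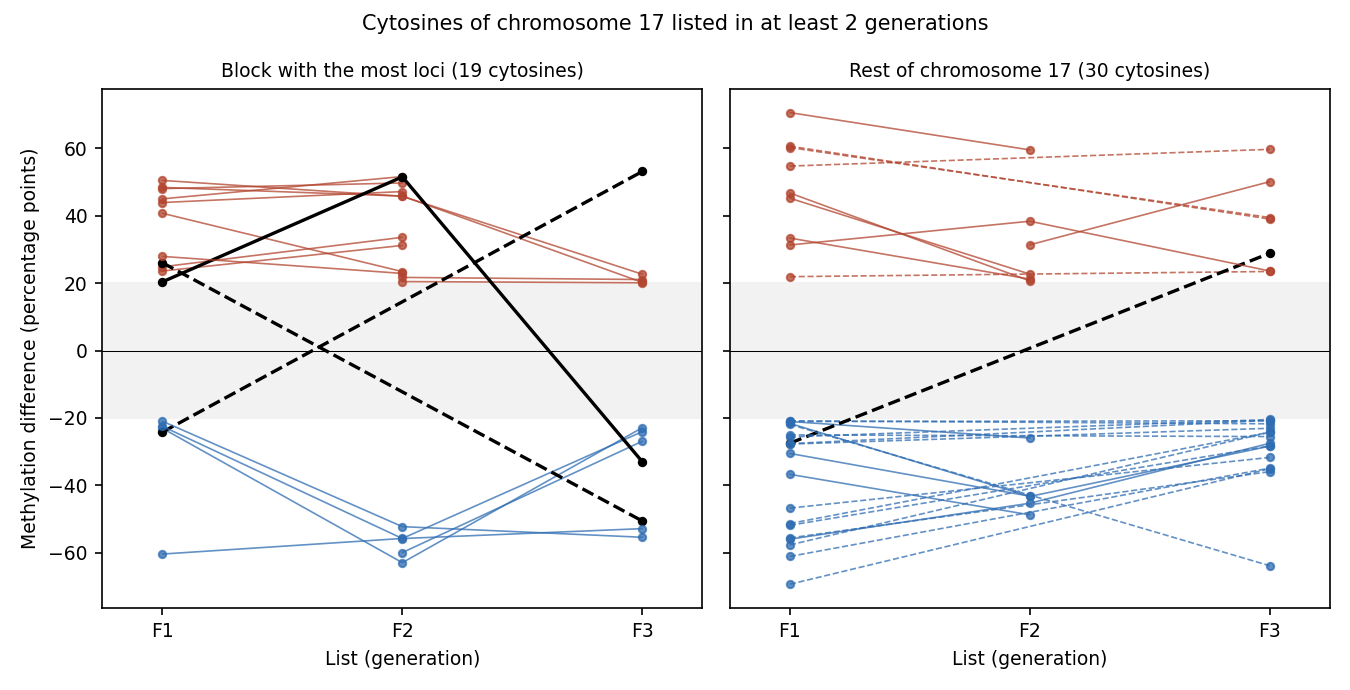
Methylation difference (percentage points, vertical) in the F1, F2 and F3 lists (horizontal) of the 49 cytosines listed in at least 2 generations, 19 in the block with the most loci and 30 elsewhere, with hypermethylated sites in red, hypomethylated sites in blue and the 4 that changed sign in black. Dashed lines join F1 and F3 values of cytosines without an F2 entry, and the grey band marks sizes under 20 points, which the lists leave out.

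Some CpGs had both strands listed in the same generation, each as a separate cytosine. Chromosome 17 held 25 such pairs, all with the same direction on both strands. The values of the 2 strands differed by a median of 5.79 points, from 0.0800 points at 11749109 in F2 to 19.3 points at 11662289 in F1, beside a median of 4.82 points over 474 pairs elsewhere. This is no replicate error, because both strands come from the same animals and both had to pass the limit of 20 points. Between generations, shared cytosines had a median gap of 10.9 points from F1 to F2, 23.5 from F1 to F3 and 18.3 from F2 to F3. The medians to F3 include cytosines that changed sign. For shared cytosines of one direction the medians were 10.9, 20.8 and 17.8 points, beside 8.97, 7.16 and 8.35 on the other chromosomes. Among the 27 cytosines behind the F1 to F3 median, 8 were neighbours in the run at 91224532, each smaller in F3. That median is therefore weighted towards a single locus, and its value without the run was not computed. No error of a change between generations can be drawn from the strand gaps, since the lists of different generations come from different animals.

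**Figure D4:**
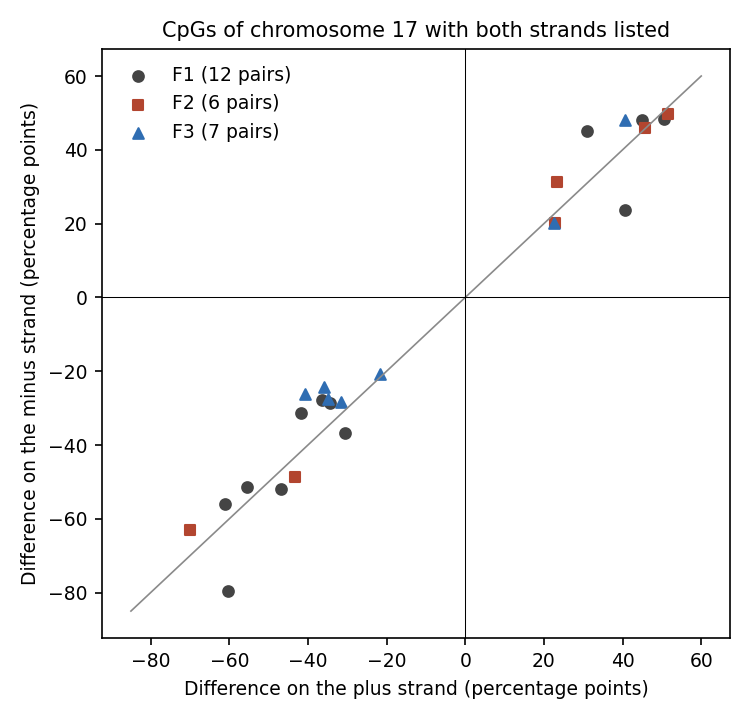
Methylation difference on the minus strand (vertical) against the plus strand (horizontal), both in percentage points, for the 25 CpG entries of chromosome 17 with both strands listed, and the grey line marks equal values. All points lie in the quadrants of equal direction, with a median strand gap of 5.79 points.

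The remaining 76 loci were listed in a single generation, 31 in F1, 8 in F2 and 37 in F3. Most loci were 1 cytosine within a list, which held for 45 of the 60 F1 loci, 19 of the 30 F2 loci and 47 of the 60 F3 loci. Many lay close to the authors' minimum, and the smallest listed sizes of F1, F2 and F3 were 20.4, 20.2 and 20.01 points. Cytosines just outside this limit were not analysed here. The largest q-value among the members was 0.00817 in F1, 0.00682 in F2 and 0.0086 in F3, and the q-value was listed at 0 for 49, 30 and 26 cytosines. Strands were represented about equally, with 46 plus and 49 minus entries in F1, 19 and 22 in F2, and 48 and 43 in F3.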

How the data were processed

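Sperm DNA of 48 samples in 8 labelled groups of 6 was measured by reduced representation bisulfite sequencing. Per the submitters' processing notes, the build was Rnor_5.0 and the tools included methylKit 0.9.4, Bismark 0.14.5 and Trim Galore 0.4.0, with no role stated. The 6 deposited lists give, for each cytosine, position, strand, the authors' signed methylation difference in percentage points, p-value and q-value. The authors kept sites below a 1% false discovery rate with a difference of at least 20 points, per the deposited description. The sources used here give no coverage minimum, strand handling or model, and the depth is unknown.

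Cytosines at most 1000 bp apart over all lists formed loci, whose direction in a generation was the sign of their mean difference. Loci at most 1 Mb apart formed blocks. CpG strands were paired at an offset of 1 bp. All chromosomes were treated alike, and chromosome 17 was set beside the other 19 with no test. Shares carry 95% exact Clopper-Pearson intervals, which cover counting error only. They treat the units counted as independent, which neighbouring cytosines and the 2 strands of a CpG are not, so intervals by cytosine or by pair are too narrow. The members, lists and definitions were chosen with earlier results of these data known. Named were the 5 largest cytosines per generation and direction, loci in all 3 generations, reversed loci, loci with at least 3 cytosines in 1 list, and the 5 blocks with most loci. Other positions were chosen after their values were seen. No annotation or sequence of Rnor_5.0 was used, so genes, exons and bases are not named. Joining was tested on 50 made-up chromosomes, and all 50 were recovered exactly. Their gaps stayed clear of the joining limits and each locus had 1 direction per generation. Gaps near a limit and loci of mixed direction were therefore not covered. Computation used pandas 2.3.3 and numpy 2.4.6 under Python 3.11.15, intervals SciPy 1.17.1, and figures matplotlib 3.10.9.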

Additional observations from a re-analysis of the deposited data

How the results depend on the processing

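Of 105 values recomputed under other settings, 80 stayed within their limits, which were 1.5 times for a count and the 95% exact interval for a share or median. None of the 19 values at q of at most 1e-5, the 20 at merging distances of 100 and 10000 bp, or the 5 by single cytosine left them. With a minimum difference of 25 points there were 22 hypermethylated and 33 hypomethylated cytosines in F1, 14 hypermethylated in F2, and 17 and 38 in F3. They fell in 62 loci, with 18 in the largest block, and the medians of F1 and F3 were 36.4 and 30.3 points. At 30 points there were 18 and 21 in F1, 13 and 11 in F2, and 9 and 19 in F3. They fell in 42 loci, with 9 in the largest block, medians of 45.01, 49.2 and 38.8 points, and a reversed share of 0. These minimums remove sites by construction. With a block distance of 0.5 Mb there were 45 blocks, the largest of 11 loci, and with 2 Mb 11 blocks. Without the largest block, chosen for this purpose after the data were seen, the share of opposite pairs within 50 bp was 0. No paired analysis was possible because the lists hold differences between groups and no value per sample; for the same reason no sample could be left out.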
